A study of Mus musculus with 9 samples.

Results

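The RNA of CD133-sorted fetal kidney cells from Tsc1 mutant mouse embryos exposed to rapamycin was compared with that of control embryos exposed to vehicle, with 3 libraries in each group. These 6 libraries were taken from a study of 9 by their sample labels, and 19656 of the 48586 genes with raw counts were tested, those with a mean normalized count (reads divided by the authors' size factor of the library) of at least 5 over all 9 libraries. Both genotype and drug differ between the 2 groups, and their parts in any difference cannot be told apart by this comparison alone. The remaining 3 libraries came from mutants given vehicle, and their values are set beside the others where they bear on a result.

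The mutants were Six2 Cre Tsc1 fl/fl embryos on a CD1 background, in which a Six2-driven Cre recombinase acts in nephron progenitors and their descendants. The controls were Tsc1 fl/fl embryos without Cre, so every group carries the floxed alleles, although the titles name the controls wild type. Only the mutants carry the Cre, so in any comparison with these controls its presence and the Tsc1 deletion cannot be told apart. Rapamycin was injected into the abdomen of the dam at 0.2 mg/kg every other day between E12.5 and E16.5, vehicle dams (DMSO) followed the same days, and the kidneys were collected at E18.5, digested with collagenase and Dispase and sorted. Control embryos exposed to rapamycin are not among the groups analysed here. Cells outside the Six2 lineage, such as stroma, endothelium and the ureteric bud and its collecting ducts, are not known to lose Tsc1 in this model, whereas the drug was given to the dam. Neither the deletion nor the drug level was measured by cell type here. The replicates carry numbers only, and nothing in the labels says whether they are embryos, litters or pools, so the p-values measure a spread between libraries that may be partly technical.

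Hamartin, the product of Tsc1, joins tuberin in a complex that turns off the GTPase Rheb and thereby holds back the kinase complex mTORC1, which drives protein, lipid and nucleotide synthesis and restrains autophagy and lysosome formation. Rapamycin, bound to the immunophilin encoded by Fkbp1a, blocks mTORC1. In the fetal kidney, progenitors of the cap mesenchyme marked by Six2 either renew themselves or are induced to form renal vesicles, which express Lhx1, Fgf8 and Notch ligands and give rise to podocytes, proximal tubule, loop of Henle and distal tubule. CD133, encoded by Prom1, lies on the apical membrane of tubule cells and was the antigen of the sort.

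Depth was 24423599 to 32669791 counts in the 6 libraries, and replicates were separate libraries, with a chi-square of at least 15.6 per degree of freedom between any pair of a group. Genes overlapping ribosomal RNA took 3.73% of the reads of rapamycin 2 and 6.34% of those of control 1, against 0.473% to 1.49% of the other 7 libraries. The Y-linked genes Ddx3y, Uty, Kdm5d and Eif2s3y together had 14 counts in control 1 and 1168 to 4049 in each of the other 8 libraries, while all genes annotated to chromosome Y summed to 4076 counts in control 1 and 4974 to 8193 in the others. By group, these 4 genes had 4049, 2623 and 3854 raw counts in the rapamycin-treated mutants and 14, 2650 and 1168 in the controls. Xist, expressed from the inactive X, had 7701, 43725 and 28135 against 63821, 40514 and 22154. The part of embryo sex in the differences was not tested. Proximal tubule markers were present throughout, with Lrp2, the endocytic receptor megalin, at 17836, 26621 and 17376 normalized counts in the rapamycin-treated mutants and 11408, 12076 and 7607 in the controls. Defining markers of other cells were present too, among them Col1a1 (stroma), Pecam1 (endothelium), Csf1r (macrophages), Six2 (progenitors) and Aqp2 (principal cells), so the sorted material was mixed. The sample titles nevertheless name proximal tubule cells in every group. Fewer cells of a type and less RNA per cell cannot be told apart in such bulk samples.

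The targeted gene did not separate the groups. Tsc1 (ENSMUSG00000026812; GRCm38 chromosome 2, bases 28641228 to 28691167) stood at 1539, 1686 and 1526 normalized counts in the rapamycin-treated mutants, 1569.9, 1747 and 1624 in the vehicle mutants and 2041, 1744 and 1439 in the controls. The rapamycin-treated mutants lay within the range of the controls, and the log2 fold change was -0.12 ± 0.13 (± SE, 3 libraries per group, limma adjusted p = 0.695). Fold changes and their SE are given throughout on the scale of log2(normalized count + 1), which understates changes of low genes, with p-values from limma adjusted over all 19656 genes by the Benjamini-Hochberg method. Which exons the Cre removes is not given in the labels, and whole-gene counts of Tsc1 leave the deletion unchecked. Tsc2, encoding tuberin (0.04 ± 0.12, adjusted p = 0.892), Prom1 (-0.05 ± 0.12, adjusted p = 0.886) and Fkbp1a (0.03 ± 0.13, adjusted p = 0.935) did not pass the test either.

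Six3, a homeobox gene known for forebrain and eye development, had the largest rise. It had 1074, 936 and 889.9 normalized counts in the rapamycin-treated mutants, 879.6, 913 and 875 in the vehicle mutants and 2.2, 0.898 and 2.76 in the controls. All rapamycin-treated mutant and vehicle mutant libraries lay far above the controls, which held 6 raw counts in all. The log2 fold change was 8.41 ± 0.25, adjusted p = 3.29e-08. Six3 spans 85613608 to 85629302 on chromosome 17 (GRCm38), and 54975 bases separate it from Six2 (85684277 to 85688274). Six3os1, the transcript on the strand opposite Six3 that overlaps it, rose by 4.40 ± 0.36, and its value is uncertain because the sources used here do not say whether counting used strand. Six2 itself had 5044, 4319 and 4032 normalized counts in the rapamycin-treated mutants, 2817, 3737 and 3511 in the vehicle mutants and 1099, 1056 and 1172 in the controls, with no overlap between either mutant group and the controls. Its log2 fold change was 2.00 ± 0.13, adjusted p = 4.5e-05, beside 1.59, adjusted p = 0.000211 for vehicle mutants against the same control libraries, and the rapamycin-treated and vehicle mutants differed by 0.42, adjusted p = 0.252. For Six3, Six3os1 and Six2, the presence of the Cre and the Tsc1 deletion cannot be told apart, and neither was tested.

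In total 637 genes (3.24% of those tested) were called at an adjusted p under 0.05, 452 higher (2.30%) and 185 lower (0.941%) in the rapamycin-treated mutants, and 342 of them differed at least 2-fold (246 higher, 96 lower). Protein-coding genes made up 605 of the 637 and long noncoding RNAs 30. The median log2 fold change over all tested genes was -0.0049. Of the called genes, 150 passed whichever of the 9 libraries was left out, and 134 of these were higher. The total was 175 without control 2, 216 without rapamycin 2, 231 without rapamycin 1, 252 without rapamycin 3, 359 without control 3, 388 without vehicle mutant 2 and 1131 without control 1. It was 477 without both libraries rich in ribosomal RNA, control 1 and rapamycin 2. Side by side, 279 genes (1.42%) were called between vehicle mutants and the same controls and 59 (0.300%) between rapamycin-treated and vehicle mutants.

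**Figure D1:**
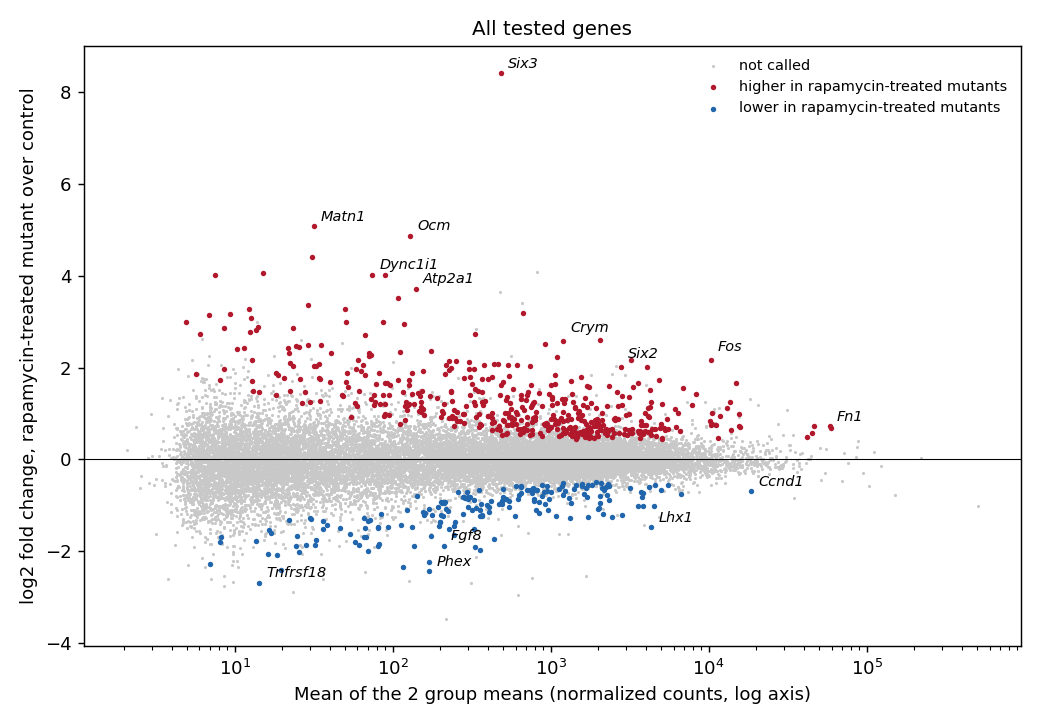
Log2 fold change of each tested gene, rapamycin-treated mutant over control, against the mean of both group means in normalized counts (log axis). Red points were called higher (452), blue points lower (185) and grey points were not called, and Six3 stands alone at the top at 8.41.

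Counts of list members are set beside the 2.30% of all tested genes called higher and the 0.941% called lower. At an unadjusted p under 0.05 (limma), 3444 of all 19656 tested genes passed in either direction, and list counts at that cut are to be read beside this. The lists were written with earlier results of these data known, so the shares describe the chosen members and are not a test of enrichment. Other large rises, some resting on few counts in the controls, were those of Matn1, Cntnap5b, Ocm, Dync1i1 and Atp2a1. Matn1, a cartilage matrix protein, rested on 193 raw counts in the rapamycin-treated mutants and 3 in the controls, 65.2 times as many once depth is allowed for (exact 95% interval for counting error alone 22.0 to 319). Cntnap5b, a neuronal adhesion protein, had 90 counts in the rapamycin-treated mutants and 3 in the controls, a ratio of 30.4 (10.1 to 150.2). Ocm, the calcium-binding oncomodulin, had 327, 219.6 and 201 normalized counts in the rapamycin-treated mutants, 234, 439 and 262 in the vehicle mutants and 8.8, 3.59 and 11.9 in the controls, and both mutant groups lay above every control. Dync1i1, an intermediate chain of the dynein motor (4.02 ± 0.30) and Atp2a1, the calcium pump of fast muscle (3.72 ± 0.28), rose as well. These 5 genes, with Six3 and Six3os1, were among the 8 largest rises where groups did not overlap and the mean reached 10 (predicted genes aside), and all 7 kept their calls whichever library was left out (9 fits). The regulators of muscle fate Myod1 and Myog had at most 1.14 and 0.997 normalized counts in any rapamycin-treated mutant library, and Acta1, the actin of skeletal muscle, at most 7.54. Of 18 skeletal muscle genes listed, 10 were tested, and Des, the intermediate filament of muscle and mural cells, was the 1 that rose (1.23 ± 0.21, adjusted p = 0.0118), while the list's median was -0.11. Atp2a1 was not a member of that list, so its count and median do not cover every muscle gene that rose. Des lost its call without rapamycin 1 (adjusted p = 0.0566).

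The 8 largest falls chosen in the same way were smaller on the log2 scale. Tnfrsf18, a receptor of the tumour necrosis factor family, had 2.99, 3.43 and 2.51 normalized counts in the rapamycin-treated mutants, 5.04, 12.9 and 11.2 in the vehicle mutants and 15.4, 26.9 and 34.9 in the controls. Phex, a membrane endopeptidase that controls phosphate handling, had 57.8, 73.2 and 31 normalized counts in the rapamycin-treated mutants, 57.4, 101 and 55.8 in the vehicle mutants and 220.1, 378 and 263 in the controls, and its highest mutant library lay below the lowest control. Their log2 fold changes were -2.68 ± 0.45, adjusted p = 0.011 and -2.43 ± 0.35, adjusted p = 0.00487. Also among the 8 largest falls were Fam163a (-2.40 ± 0.50), R3hdml (-2.35 ± 0.46), the adhesion protein Vsig8 (-2.23 ± 0.47), Pou4f1, a transcription factor of sensory neurons (-2.08 ± 0.41), Vstm2l (-2.01 ± 0.38) and Rims4, of the synaptic release machinery (-1.99 ± 0.35). Phex kept its call in all 9 fits, Tnfrsf18 lost its call without control 2 (adjusted p up to 0.0682), and the other 6 lost theirs in 3 to 6 of the 9, among them the fits without control 2 and without rapamycin 1 (adjusted p up to 0.147). The 5 most abundant genes called lower were Ccnd1 and Pax8, described with the committed nephron, Hmgb2, a chromatin protein of dividing cells (-0.67 ± 0.15), the semaphorin receptor Plxnb1 (-0.56 ± 0.12) and the histone demethylase Kdm2b (-0.55 ± 0.12), and Hmgb2 lost its call without any 1 library other than vehicle mutant 1 or control 1 (adjusted p up to 0.147). Plxnb1 and Kdm2b lost their calls without any 1 library other than vehicle mutant 1, vehicle mutant 3 or control 1 (adjusted p up to 0.167).

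Nephron progenitor genes were called in both directions. Of 20 tested members, 5 rose and 2 fell, with a median log2 fold change of 0.27, beside -0.0049 over all genes. Crym, a thyroid hormone binding protein of the cap mesenchyme, had 2469.6, 1765 and 1914 normalized counts in the rapamycin-treated mutants, 1371, 1664 and 1502 in the vehicle mutants and 376, 272 and 378 in the controls. Osr1, a zinc finger factor needed for the earliest kidney progenitors, had 527, 358 and 344 normalized counts in the rapamycin-treated mutants, 241, 222 and 209.7 in the vehicle mutants and 105, 75.4 and 93.7 in the controls. For both genes every rapamycin-treated library was above every vehicle mutant library, and these above every control. Their log2 fold changes were 2.58 ± 0.17, adjusted p = 4.5e-05 and 2.14 ± 0.21, adjusted p = 0.000414. The mutant groups differed by 0.43 (adjusted p = 0.363) for Crym and 0.84 (adjusted p = 0.143) for Osr1, and neither passed. Eya1, the coactivator that partners Six2 (1.57 ± 0.15), Hoxc10, of the posterior Hox genes (0.85 ± 0.11), and Traf1, an adaptor of cytokine receptors (1.27 ± 0.22), completed the rises. The members that fell were Meox2, a mesodermal homeobox gene (-1.47 ± 0.26, adjusted p = 0.0122), and Tmem100 (-0.96 ± 0.19, adjusted p = 0.0229), both named after their values were seen together with Traf1. Cited1, the coactivator of self-renewing cap cells, stood at 758, 626 and 702 normalized counts in the rapamycin-treated mutants and 363, 295 and 501 in the controls and did not pass (0.88 ± 0.22, adjusted p = 0.0586). The 4 rises of Crym, Osr1, Eya1 and Hoxc10 kept their calls in all 9 fits, whereas the count of 2 falls was 0 without rapamycin 1, rapamycin 3 or control 2 and 1 without control 3.

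All called genes of the renal vesicle and committed nephron fell. Of 23 tested members, 8 fell and 0 rose (14 of 23 lower and 0 higher at an unadjusted p under 0.05, 0 higher by limma-voom), with a median of -0.56. Lhx1, a homeobox factor required for renal vesicles, had 1728, 2318 and 2810.5 normalized counts in the rapamycin-treated mutants, 3848, 3496 and 3721 in the vehicle mutants and 4766, 7446 and 6889.7 in the controls. Fgf8, a growth factor of nascent nephrons that sustains their survival, had 81.8, 77.8 and 99.7 normalized counts in the rapamycin-treated mutants, 141, 163 and 199 in the vehicle mutants and 204, 347 and 455 in the controls. In both cases the 3 groups did not overlap, with the rapamycin-treated mutants lowest, the vehicle mutants between and the controls highest. The log2 fold changes were -1.48 ± 0.20, adjusted p = 0.00305 and -1.87 ± 0.28, adjusted p = 0.00549. Against the same controls the vehicle mutants had -0.76, adjusted p = 0.11 for Lhx1 and -0.93, adjusted p = 0.177 for Fgf8, and the mutant groups differed by -0.72, adjusted p = 0.178 and by -0.94, adjusted p = 0.211, so that difference did not pass. Pax8, a paired box factor of nephron epithelium (-0.76 ± 0.17), Ccnd1, cyclin D of induced cells (-0.69 ± 0.16), and Osr2 (-1.01 ± 0.20, named after its values were seen) fell as well. Sfrp2, a secreted Wnt antagonist, fell by 1.00 ± 0.18. The count of 8 was 4 without rapamycin 1, rapamycin 2 or control 2 and 5 without rapamycin 3 or control 3. Pax8 lost its call without any 1 library other than vehicle mutant 1, vehicle mutant 3 or control 1 (adjusted p up to 0.181). Ccnd1 lost its call without any 1 library other than vehicle mutant 1 or control 1 (adjusted p up to 0.181). Sfrp2 lost its call without rapamycin 1, rapamycin 2 or control 2 (adjusted p up to 0.0851). Lhx1, Fgf8, Dll1 and Lfng kept their calls in all 9 fits.

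Signals that pattern the nephron changed in part. In the Notch pathway, 1 of 18 members rose and 3 fell (median -0.03). The Notch ligand Dll1 had 1100.1, 1455 and 1396 normalized counts in the rapamycin-treated mutants, 1896, 1707 and 2438 in the vehicle mutants and 2377, 2798 and 3039.8 in the controls, and Lfng, the glycosyltransferase that tunes Notch receptors, had 1494, 1624 and 1969 normalized counts in the rapamycin-treated mutants, 2239, 2304 and 3038 in the vehicle mutants and 3208, 3793 and 4916 in the controls. Rapamycin-treated mutants lay below all controls for each, with log2 fold changes of -1.06 ± 0.16, adjusted p = 0.00673 and -1.21 ± 0.18, adjusted p = 0.00549. Heyl, a target of Notch, also fell (-0.60 ± 0.14, adjusted p = 0.0438), whereas Dll4, the endothelial Notch ligand, rose (1.00 ± 0.21, adjusted p = 0.0287). Heyl lost its call without any 1 library other than rapamycin 3, vehicle mutant 1 or control 1 (adjusted p up to 0.164). Dll4 lost its call without any 1 library other than vehicle mutant 1, vehicle mutant 2, vehicle mutant 3 or control 1 (adjusted p up to 0.137). The Notch rises numbered 0 without rapamycin 1, rapamycin 2, rapamycin 3, control 2 or control 3 and 2 without vehicle mutant 1 or control 1.

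Among 30 Wnt ligands, antagonists and feedback targets, 5 rose and 2 fell (median 0.18). Apcdd1, a membrane-bound Wnt inhibitor, had 5383, 4238 and 3878 normalized counts in the rapamycin-treated mutants, 3050.1, 3709.7 and 2969 in the vehicle mutants and 2049, 1486 and 1714 in the controls, and the log2 fold change was 1.36 ± 0.16, adjusted p = 0.00158. Wnt5a (1.13 ± 0.27) and Axin2, a feedback target (0.54 ± 0.13), both named after their values were seen, rose with Dkk3 (0.63 ± 0.11) and Wnt11, the ligand of ureteric tips (0.62 ± 0.13). Dkk2 (-1.02 ± 0.24) fell with Sfrp2. Of 20 FGF ligands, receptors and inhibitors, 3 rose and 1 fell (median 0.06). Fgf20, which with other FGFs keeps progenitors alive, had 119.7, 145 and 102 normalized counts in the rapamycin-treated mutants, 82.6, 96.1 and 72.5 in the vehicle mutants and 27.5, 26 and 20.2 in the controls, a rise of 2.27 ± 0.24, adjusted p = 0.000776. Fgf10, a ligand for the ureteric bud (1.24 ± 0.25), and Dusp6, a phosphatase induced by FGF signalling (0.65 ± 0.12), rose, and Fgf8 fell. Apcdd1, Fgf20 and Fgf8 kept their calls in all 9 fits, while Dkk3 and Dusp6 lost their calls without rapamycin 2, rapamycin 3 or control 2 (adjusted p up to 0.102). Wnt11 lost its call without any 1 library other than vehicle mutant 1, vehicle mutant 3 or control 3 (adjusted p up to 0.136). Fgf10 lost its call without rapamycin 2, rapamycin 3 or control 3 (adjusted p up to 0.0983). The Wnt rises numbered 3 with the 6 compared libraries alone, 1 without rapamycin 2, rapamycin 3 or control 2, 2 without rapamycin 1 or vehicle mutant 2, 3 without control 1 and 2 without both control 1 and rapamycin 2. The Wnt falls numbered 0 without rapamycin 1, rapamycin 2 or control 2, 1 without rapamycin 3, vehicle mutant 2, vehicle mutant 3 or control 3 and 1 without both control 1 and rapamycin 2. The FGF rises numbered 1 without rapamycin 2 or rapamycin 3 and 1 without both control 1 and rapamycin 2.

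Of 18 tested podocyte genes, 3 fell and 0 rose (7 lower and 0 higher at an unadjusted p under 0.05, 0 higher by limma-voom), with a median of -0.18. Nphs1, encoding nephrin of the slit diaphragm, had 242, 183 and 194 normalized counts in the rapamycin-treated mutants, 497, 424 and 465 in the vehicle mutants and 709, 391 and 413 in the controls. Every rapamycin-treated library was below every library of the other groups, while vehicle mutant libraries overlapped the controls. The log2 fold change was -1.24 ± 0.22, adjusted p = 0.0143, beside -0.07, adjusted p = 0.977 for the vehicle mutants against the same controls. Between rapamycin-treated and vehicle mutants the difference was -1.16, adjusted p = 0.0686. Earlier or broader podocyte genes such as Tcf21 (0.28 ± 0.13, adjusted p = 0.302) and Synpo (-0.32 ± 0.13, adjusted p = 0.249) did not pass. Nphs1 lost its call without rapamycin 2 or rapamycin 3 (adjusted p up to 0.0697), and the count of 3 was 1 without rapamycin 2 or control 2.

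**Figure D2:**
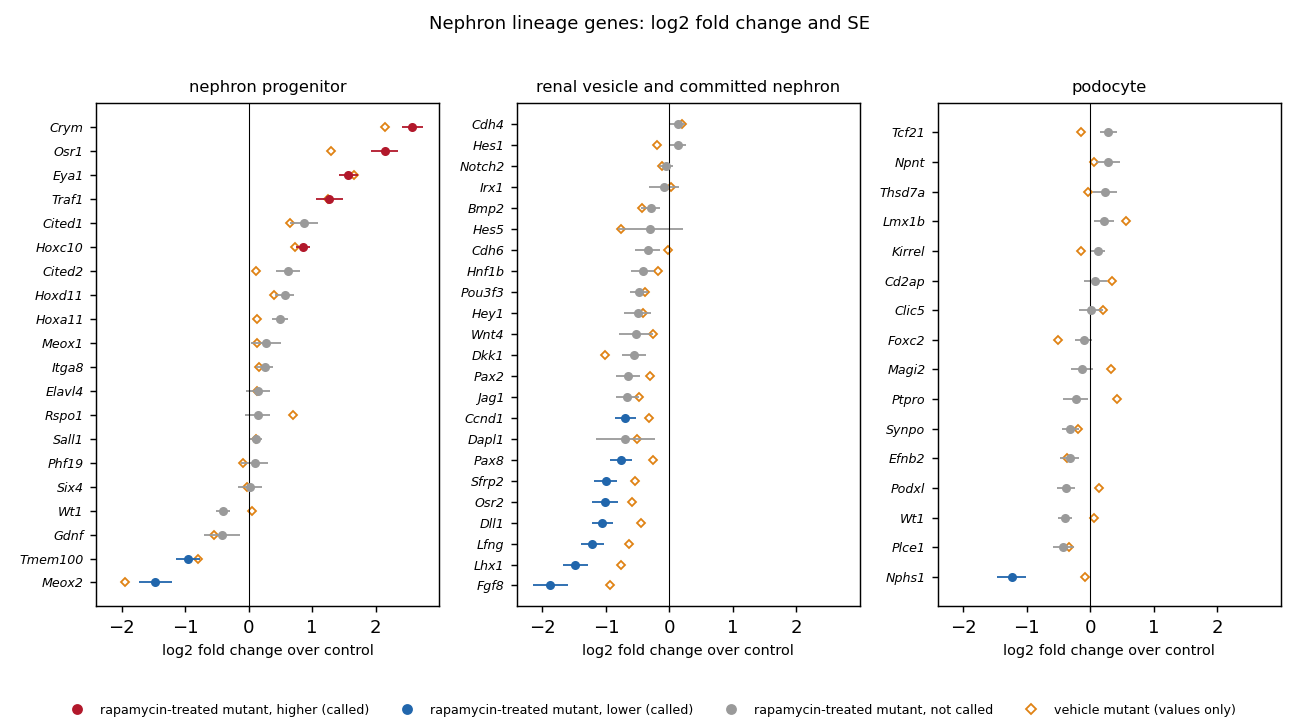
Log2 fold change over control with its SE (horizontal, log2 units) for genes of 3 lists, nephron progenitor (20 tested genes), renal vesicle and committed nephron (23 tested genes) and podocyte (16 of 18 tested genes), ordered by size. Filled circles are rapamycin-treated mutants (red called higher, blue called lower, grey not called) and open orange diamonds are vehicle mutants over the same control libraries. The podocyte gene Nphs1 has its blue circle at -1.24 and its diamond at -0.07.

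Proximal tubule genes that were called rose. Of 34 tested metabolic members, 7 rose and 0 fell (12 higher and 1 lower at an unadjusted p under 0.05, 0 lower by limma-voom), with a median of 0.20. Ass1, argininosuccinate synthase of arginine synthesis, had 1567, 1639 and 1662 normalized counts in the rapamycin-treated mutants, 1588, 1410.2 and 1535 in the vehicle mutants and 435, 555 and 569.6 in the controls. Both mutant groups lay above every control, with a log2 fold change of 1.65 ± 0.13, adjusted p = 0.000104 and a difference between mutant groups of 0.10, adjusted p = 0.835. Acsm2, a medium-chain acyl-CoA synthetase (1.05 ± 0.14), rose too. Gatm, of creatine synthesis (0.60 ± 0.14), Cyp2j5, a cytochrome (1.26 ± 0.26), and Sord, sorbitol dehydrogenase (0.55 ± 0.12), named after their values were seen, also rose. The count of 7 was 3 without rapamycin 1, rapamycin 2, rapamycin 3 or control 2, 4 without vehicle mutant 2 and 3 without both control 1 and rapamycin 2.

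In proximal tubule solute transport, 6 of 37 tested members rose and 0 fell (15 higher and 1 lower at an unadjusted p under 0.05, 4 higher and 0 lower by limma-voom), with a median of 0.43. Slc2a2, the basolateral glucose transporter, had 1090.2, 1299.6 and 928 normalized counts in the rapamycin-treated mutants, 1480.2, 1310.2 and 1238 in the vehicle mutants and 501, 511 and 387 in the controls, with both mutant groups above every control (1.24 ± 0.16, adjusted p = 0.00271). Slc3a1, a subunit of the cystine transporter (0.99 ± 0.19), and Slc22a6, an organic anion transporter (0.78 ± 0.17), rose with Slc4a4, the basolateral bicarbonate carrier (0.74 ± 0.18), and Slc7a8, an amino acid carrier (0.57 ± 0.13). Slc2a2 kept its call in all 9 fits. Slc3a1 lost its call without rapamycin 1, rapamycin 2 or rapamycin 3 (adjusted p up to 0.0915). Slc22a6 lost its call without any 1 library other than vehicle mutant 1, vehicle mutant 3 or control 3 (adjusted p up to 0.147). The count of 6 was 1 without rapamycin 1, rapamycin 2 or rapamycin 3, 2 without control 2, 3 without vehicle mutant 2 and 1 without both control 1 and rapamycin 2, and 1 member fell without control 1. Of 21 endocytosis and brush border genes, 2 rose and 0 fell (4 higher and 0 lower at an unadjusted p under 0.05, 0 lower by limma-voom; median 0.09), namely Lrp2 (0.99 ± 0.21, adjusted p = 0.0276) and the brush border scaffold Pdzk1 (0.67 ± 0.11, adjusted p = 0.0102). Pdzk1 lost its call without rapamycin 1 or control 2 (adjusted p up to 0.0622). Lrp2 lost its call without any 1 library other than vehicle mutant 1, vehicle mutant 3 or control 1 (adjusted p up to 0.102). Of 12 proximal tubule transcription factors, 0 passed under limma and 0 under limma-voom (3 higher and 0 lower at an unadjusted p under 0.05), and Ppara, the fatty acid sensor, had the smallest p (0.95 ± 0.24, adjusted p = 0.058). Without control 1, 2 were called, and without vehicle mutant 1, 1 was called.

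Among collecting duct genes, 1 intercalated cell gene fell and 1 principal cell gene rose, and the others did not pass. Of 18 intercalated cell genes, 1 fell and 0 rose (10 lower and 0 higher at an unadjusted p under 0.05, 2 lower and 0 higher by limma-voom), with a median of -0.71. The member that fell was Slc4a9, a sodium bicarbonate carrier of intercalated cells, with 163, 188 and 246 normalized counts in the rapamycin-treated mutants, 41.3, 49.5 and 60.2 in the vehicle mutants and 354, 430.1 and 428 in the controls. Rapamycin-treated mutants lay between the other groups without overlap. The log2 fold change was -1.04 ± 0.22, adjusted p = 0.0276, beside -2.99, adjusted p = 0.000148 for vehicle mutants against the same controls, and rapamycin-treated and vehicle mutants differed by 1.95, adjusted p = 0.00508. Slc4a9 lost its call without any 1 library other than rapamycin 3, vehicle mutant 1, vehicle mutant 3 or control 1 (adjusted p up to 0.137). The list's medians were -0.71 for rapamycin-treated mutants and -2.26 for vehicle mutants over those controls. Of 15 principal cell genes, 1 rose and 0 fell (2 higher and 0 lower at an unadjusted p under 0.05, 1 higher and 0 lower by limma-voom; median -0.06). Aqp2, the water channel, had 956, 1155 and 1174 normalized counts in the rapamycin-treated mutants, 193, 133 and 247 in the vehicle mutants and 1167, 795 and 1729.8 in the controls, and did not pass (-0.10 ± 0.28, adjusted p = 0.894). Hsd11b2, which shields the mineralocorticoid receptor from glucocorticoid, was the member that rose, with 1224, 897 and 1008 normalized counts in the rapamycin-treated mutants, 532, 658 and 662 in the vehicle mutants and 549, 496 and 593 in the controls and 0.92 ± 0.15, adjusted p = 0.0102. Hsd11b2 lost its call without rapamycin 1 or control 2 (adjusted p up to 0.0638), and 2 principal cell genes rose without vehicle mutant 1.

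Of 25 loop of Henle and distal tubule genes, 1 fell and 0 rose (4 lower and 1 higher at an unadjusted p under 0.05, 1 lower and 0 higher by limma-voom; median -0.37). The fall was that of Cldn19, a claudin of the ascending limb (-1.10 ± 0.23, adjusted p = 0.0297). Cldn19 lost its call without any 1 library other than vehicle mutant 1, vehicle mutant 3 or control 1 (adjusted p up to 0.141), and 2 members fell without control 1. Umod, encoding uromodulin, spread widely at 633, 1091 and 1511 normalized counts in the rapamycin-treated mutants and 1129, 2496 and 3034 in the controls (-1.01 ± 0.47, adjusted p = 0.298). Of 22 ureteric tip and trunk genes, 1 rose (Wnt11) and 1 fell, the homeobox gene Emx2 (-0.66 ± 0.14, adjusted p = 0.0337), with a median of -0.01. Wnt11 lost its call without any 1 library other than vehicle mutant 1, vehicle mutant 3 or control 3 (adjusted p up to 0.136). Emx2 lost its call without any 1 library other than vehicle mutant 1, vehicle mutant 3 or control 1 (adjusted p up to 0.157). Without vehicle mutant 1, 2 ureteric genes rose, and without control 1, 2 fell.

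Immediate early genes, whose transcription starts within minutes of a stimulus and which also respond to tissue dissociation, rose as a group. Of 31 tested members, 22 rose and 0 fell (27 higher and 0 lower at an unadjusted p under 0.05, 22 higher and 0 lower by limma-voom). The median log2 fold change was 1.18, and 31 of 31 were positive. Promoters of the 4 members with the smallest p are shown because this list had the highest median of all lists. They are the 250 bases before the first listed start in RefSeq (GRCm38.p6), 5′ to 3′ on the gene's strand. Capitals mark the letters TGACG, the core of the cyclic AMP response element, on either strand, and in Zfp36 a CArG box, the element bound by serum response factor. The 2 cores in Btg2 overlap.
Fos, chr12:85473640-85473889, plus strand: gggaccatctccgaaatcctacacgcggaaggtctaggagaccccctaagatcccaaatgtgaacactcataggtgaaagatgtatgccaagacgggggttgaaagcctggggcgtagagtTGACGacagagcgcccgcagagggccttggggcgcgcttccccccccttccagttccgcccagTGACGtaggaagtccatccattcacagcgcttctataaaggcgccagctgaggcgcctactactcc
Btg2, chr1:134079156-134079405, minus strand: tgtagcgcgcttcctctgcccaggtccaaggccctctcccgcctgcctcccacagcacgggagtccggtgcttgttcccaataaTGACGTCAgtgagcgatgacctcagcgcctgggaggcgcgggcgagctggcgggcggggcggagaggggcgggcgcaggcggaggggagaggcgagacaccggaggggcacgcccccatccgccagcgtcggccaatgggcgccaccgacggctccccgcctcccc
Zfp36, chr7:28379229-28379478, minus strand: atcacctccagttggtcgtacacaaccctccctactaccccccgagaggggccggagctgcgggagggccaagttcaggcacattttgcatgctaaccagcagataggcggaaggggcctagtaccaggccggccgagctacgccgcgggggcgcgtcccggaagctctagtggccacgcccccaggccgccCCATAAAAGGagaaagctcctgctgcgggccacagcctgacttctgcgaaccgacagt
Nr4a1, chr15:101266596-101266845, plus strand: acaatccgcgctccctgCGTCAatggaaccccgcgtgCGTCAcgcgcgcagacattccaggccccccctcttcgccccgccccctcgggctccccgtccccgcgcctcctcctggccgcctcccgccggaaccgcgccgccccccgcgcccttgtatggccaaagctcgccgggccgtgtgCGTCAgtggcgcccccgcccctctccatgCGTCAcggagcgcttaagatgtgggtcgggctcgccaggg
Of the 31 members, 26 matched a promoter in the RefSeq table, and the core stood in 12 of them (46.2%), against 3217 of 12939 promoters of all tested genes (24.9%). Among the 22 members that rose, 18 matched and 8 of these held the core (44.4%), and its part in the rise was not tested. A CArG box stood in 1 of the 26 and in 147 of the 12939 (1.14%). Only these 250 bases and the strict consensus were searched, so a gene without a marked site may hold one further upstream.

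Fos, a subunit of the transcription factor AP-1, had 19708, 18800.3 and 12127 normalized counts in the rapamycin-treated mutants, 5248, 3663 and 4111 in the vehicle mutants and 4562, 3732 and 2965 in the controls. Zfp36, which destabilizes mRNAs of cytokines, had 8124, 8159 and 6204 normalized counts in the rapamycin-treated mutants, 2922, 3178 and 3538 in the vehicle mutants and 2459, 2230.3 and 2049 in the controls. Btg2, an antiproliferative gene, had 7544, 6775 and 5256 normalized counts in the rapamycin-treated mutants, 2739, 2172 and 2665 in the vehicle mutants and 1915, 1485 and 1414 in the controls. For these genes and for the nuclear receptor Nr4a1, with 4469, 3974 and 3199 normalized counts in the rapamycin-treated mutants, 1565, 1517 and 1485 in the vehicle mutants and 1553, 1337 and 1279 in the controls, all rapamycin-treated libraries lay above every library of the other groups. Log2 fold changes were 2.16 ± 0.22, adjusted p = 0.000495 for Fos, 1.73 ± 0.14, adjusted p = 0.000104 for Zfp36, 2.02 ± 0.17, adjusted p = 0.000115 for Btg2 and 1.47 ± 0.14, adjusted p = 0.000298 for Nr4a1. Beside them, vehicle mutants over the same controls had 0.22, adjusted p = 0.872 for Fos and 0.14, adjusted p = 0.872 for Nr4a1. Between rapamycin-treated and vehicle mutants, 12 of the 31 members were higher and 0 were lower, against 0.300% of all genes called, with 1.94, adjusted p = 0.00508 for Fos and 1.34, adjusted p = 0.00508 for Nr4a1.

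Other members that rose were the AP-1 genes Fosb (2.16), Jun (1.42), Junb (1.26) and Fosl2 (1.17), the Egr factors Egr1 (1.66), Egr2 (1.81) and Egr3 (2.09), and Arc (2.13), all named after their values were seen. The count of 22 was 15 without control 2, 16 without rapamycin 2, 17 without rapamycin 3 and 19 to 23 without any other single library, and it was 18 without both control 1 and rapamycin 2. The summed level of the list was 105132 to 143222 normalized counts in rapamycin-treated mutants, 52872 to 60299 in vehicle mutants and 48979.6 to 53822 in controls.

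Stress genes of other kinds moved with fewer members. Of 16 heat shock chaperones, 3 rose and 0 fell (4 higher and 0 lower at an unadjusted p under 0.05, 0 lower by limma-voom; median 0.07). Hspa1a had 2977, 4327 and 3188 normalized counts in the rapamycin-treated mutants, 1365, 914 and 1314 in the vehicle mutants and 1414, 963 and 1099.6 in the controls (1.59 ± 0.20, adjusted p = 0.00241). Its near-identical copy Hspa1b (1.58 ± 0.21) shares sequence with it, so the split of reads between them is uncertain, and the cochaperone Dnajb1 rose by 0.89 ± 0.13. These 3 kept their calls in all 9 fits, and each was also higher in rapamycin-treated than in vehicle mutants (Hspa1a 1.55, adjusted p = 0.0128). Of 17 glucocorticoid receptor and response genes, 5 rose and 0 fell (10 higher and 0 lower at an unadjusted p under 0.05, 0 lower by limma-voom; median 0.54). They were the phosphatase Dusp1 (1.18 ± 0.13, adjusted p = 0.000826), the clock gene Per1 (0.88 ± 0.14, adjusted p = 0.00799), Errfi1 (0.90 ± 0.16), Hsd11b2 and Klf15 (1.16 ± 0.25, named after its values were seen). Dusp1 also belongs to the immediate early list. The count was 2 without rapamycin 1 or control 2 and 3 without rapamycin 2, and Errfi1 lost its call without rapamycin 1, rapamycin 2 or control 2 (adjusted p up to 0.0748).

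Of 20 p53 targets, 3 rose and 0 fell (11 higher and 0 lower at an unadjusted p under 0.05, 0 lower by limma-voom; median 0.44). Cdkn1a, the cell cycle inhibitor p21, had 876, 1321 and 1057 normalized counts in the rapamycin-treated mutants, 888, 961 and 1151 in the vehicle mutants and 485, 484 and 598 in the controls (1.04 ± 0.17, adjusted p = 0.0102), and both mutant groups lay above every control. Pmaip1, the proapoptotic Noxa, rose by 1.38 ± 0.27, and Btg2 is also in this list. Cdkn1a lost its call without control 2 (adjusted p up to 0.0626). Pmaip1 lost its call without rapamycin 2, rapamycin 3, control 2 or control 3 (adjusted p up to 0.112), and the count was 1 without control 2. Of 31 tubule injury and repair genes, 5 rose and 1 fell (median 0.22). The rises were Cd44, Fn1, Cdkn1a, Cyr61 and Myc, and the fall was that of Anxa1, an annexin that dampens inflammation (-1.04, adjusted p = 0.0155, named after its values were seen like Myc here). Cd44, a hyaluronan receptor of injured tubules, had 1064, 1177 and 1008 normalized counts in the rapamycin-treated mutants, 829, 1130.0 and 788 in the vehicle mutants and 562, 394 and 432 in the controls (1.24 ± 0.18, adjusted p = 0.00438). Fn1, encoding fibronectin and among the most abundant of all called genes, had 81392, 70643 and 66517 normalized counts in the rapamycin-treated mutants, 51078, 50804 and 45115 in the vehicle mutants and 49699.8, 45178 and 37516 in the controls, with the rapamycin-treated mutants above all others (0.73 ± 0.13, adjusted p = 0.0147). Between the mutant groups Fn1 differed by 0.57, adjusted p = 0.122, which did not pass. Fn1 lost its call without rapamycin 1, rapamycin 2 or control 2 (adjusted p up to 0.0693). The injury rises numbered 2 without control 2, 3 without rapamycin 1 or rapamycin 2 and 3 without both control 1 and rapamycin 2, and the falls 0 without rapamycin 2, rapamycin 3 or control 3, 2 without control 1 and 0 without both control 1 and rapamycin 2.

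Cyr61, a matricellular target of the YAP coactivator, had 9842, 12359.7 and 8609.9 normalized counts in the rapamycin-treated mutants, 3409, 2012 and 2709 in the vehicle mutants and 4049, 3351 and 3093 in the controls. Every rapamycin-treated library was above every other library, and the log2 fold change was 1.55 ± 0.20, adjusted p = 0.00248, beside -0.39, adjusted p = 0.575 for vehicle mutants against the same controls and 1.94, adjusted p = 0.00508 between the mutant groups. It kept its call in all 9 fits. Of 22 YAP pathway genes and matricellular targets, 2 rose and 0 fell (4 higher and 0 lower at an unadjusted p under 0.05, 0 lower by limma-voom; median 0.14), the second being Thbs1, thrombospondin (1.20 ± 0.27, adjusted p = 0.0358). Thbs1 lost its call without any 1 library other than vehicle mutant 1, vehicle mutant 3 or control 1 (adjusted p up to 0.164).

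**Figure D3:**
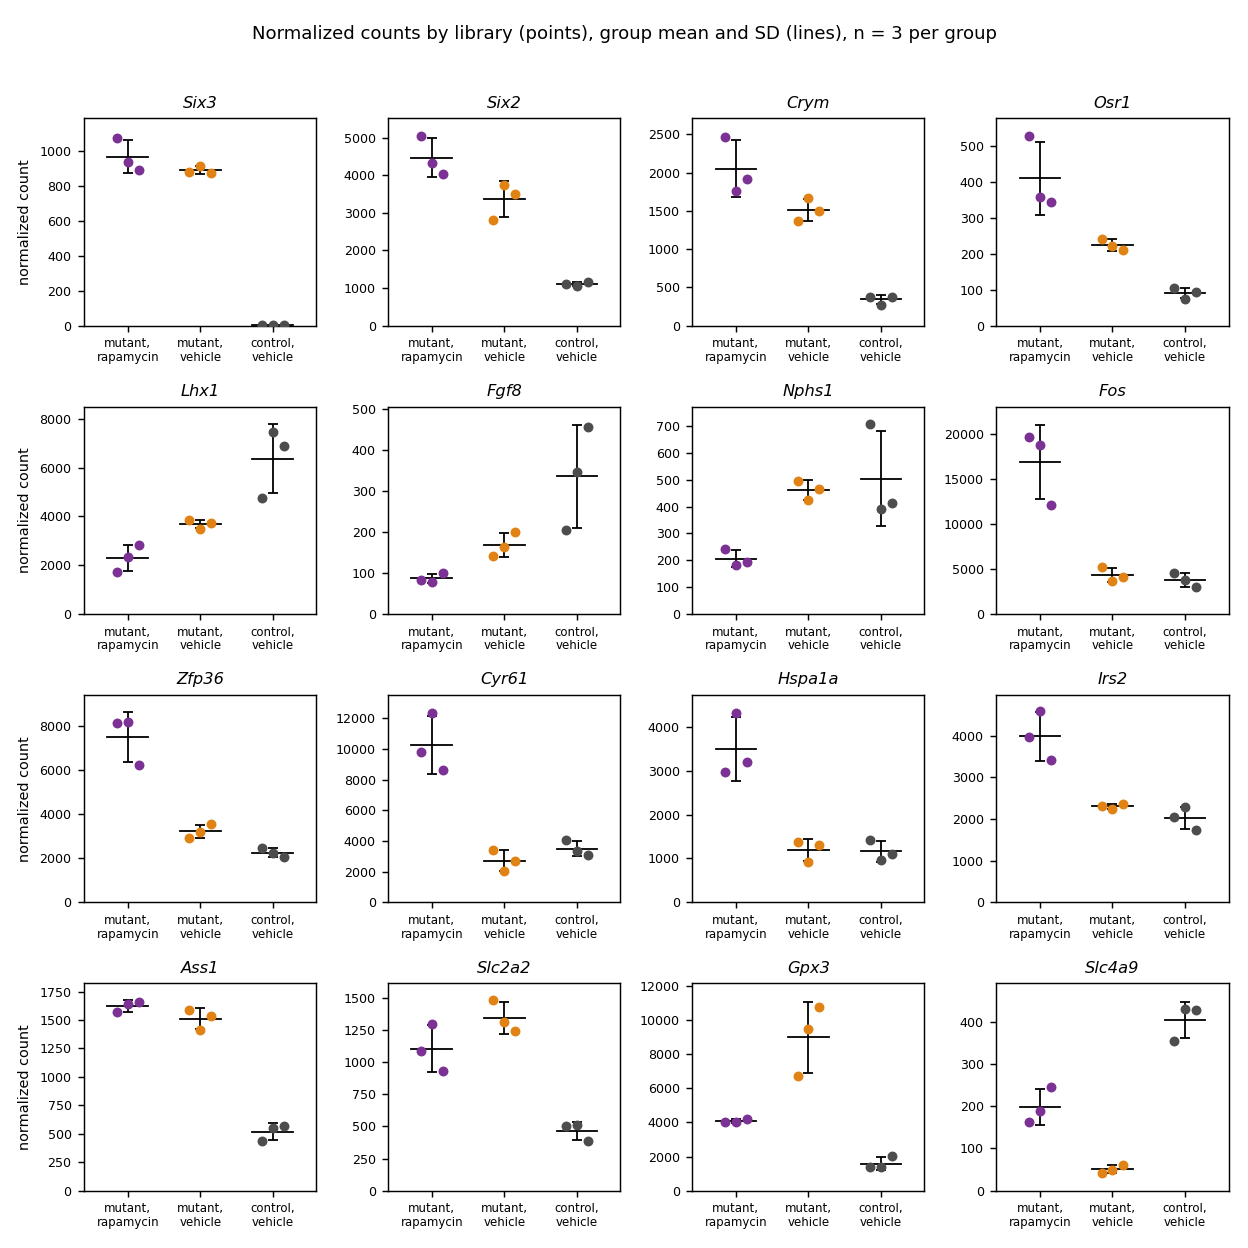
Normalized counts of 16 genes in each library (points, vertical axis from 0), with the mean (long line) and SD (error bar) of the 3 libraries of mutants given rapamycin, mutants given vehicle and controls given vehicle, left to right. Fos, Zfp36, Cyr61 and Hspa1a are higher in rapamycin-treated mutants than in any library of the other groups, Nphs1 is low there, Six2, Ass1 and Slc2a2 are high in both mutant groups, and for Gpx3 and Slc4a9 the rapamycin-treated mutants lie between the other groups.

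The glycolysis and hypoxia genes that were called rose, and their number varied with the libraries fitted. Of 32 tested members, 8 rose and 0 fell (27 higher and 0 lower at an unadjusted p under 0.05, 9 higher and 0 lower by limma-voom), with a median of 1.11. Ndrg1, induced by hypoxia and stress, had 4935, 8383 and 5625 normalized counts in the rapamycin-treated mutants, 4504, 4490.1 and 5984 in the vehicle mutants and 2148, 2186 and 2173 in the controls, and both mutant groups exceeded every control (1.50 ± 0.18, adjusted p = 0.00213). Adm, encoding the vasodilator adrenomedullin, had 345, 732 and 375 normalized counts in the rapamycin-treated mutants, 215, 111 and 134 in the vehicle mutants and 171, 108 and 121 in the controls. Here the rapamycin-treated libraries lay above all others, and rapamycin 2 was the highest (1.79 ± 0.33 over controls, adjusted p = 0.0146). Between the mutant groups Adm differed by 1.62, adjusted p = 0.0839, which did not pass. Aldoc, an aldolase (1.95 ± 0.32), Hk1, the housekeeping hexokinase (0.57 ± 0.10), and, named after their values were seen, P4ha2 (1.42 ± 0.27), Egln3 (0.89 ± 0.19), Gpi1 (0.64 ± 0.15) and Mxi1 (0.61 ± 0.14) rose. Slc2a1, the glucose transporter of hypoxic cells, had 3452, 5928 and 4292 normalized counts in the rapamycin-treated mutants, 2831, 782 and 907 in the vehicle mutants and 2170.2, 895 and 1000.4 in the controls and did not pass (1.83 ± 0.47, adjusted p = 0.0655), with vehicle mutant 1 high among the vehicle mutants and control 1 high among the controls.

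The list's summed level was 231131 to 303908 normalized counts in rapamycin-treated mutants, 103831 to 212448 in vehicle mutants and 108896 to 169172 in controls. The count of 8 was 1 without control 2, 3 without rapamycin 2 or rapamycin 3, 4 without rapamycin 1, 5 without control 3, 17 without control 1, 25 without vehicle mutant 1 and 4 without both control 1 and rapamycin 2, and fitted on the 6 compared libraries alone it was 21. Ndrg1 kept its call in all 9 fits, and Adm lost its call without rapamycin 2 or control 2 (adjusted p up to 0.0873). Aldoc lost its call without control 2 (adjusted p up to 0.0624). Hk1 lost its call without rapamycin 1, rapamycin 3 or control 2 (adjusted p up to 0.0832). Control 1 and rapamycin 2 also hold the largest shares of reads on ribosomal RNA, and the part of RNA quality in these levels was not tested.

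**Figure D4:**
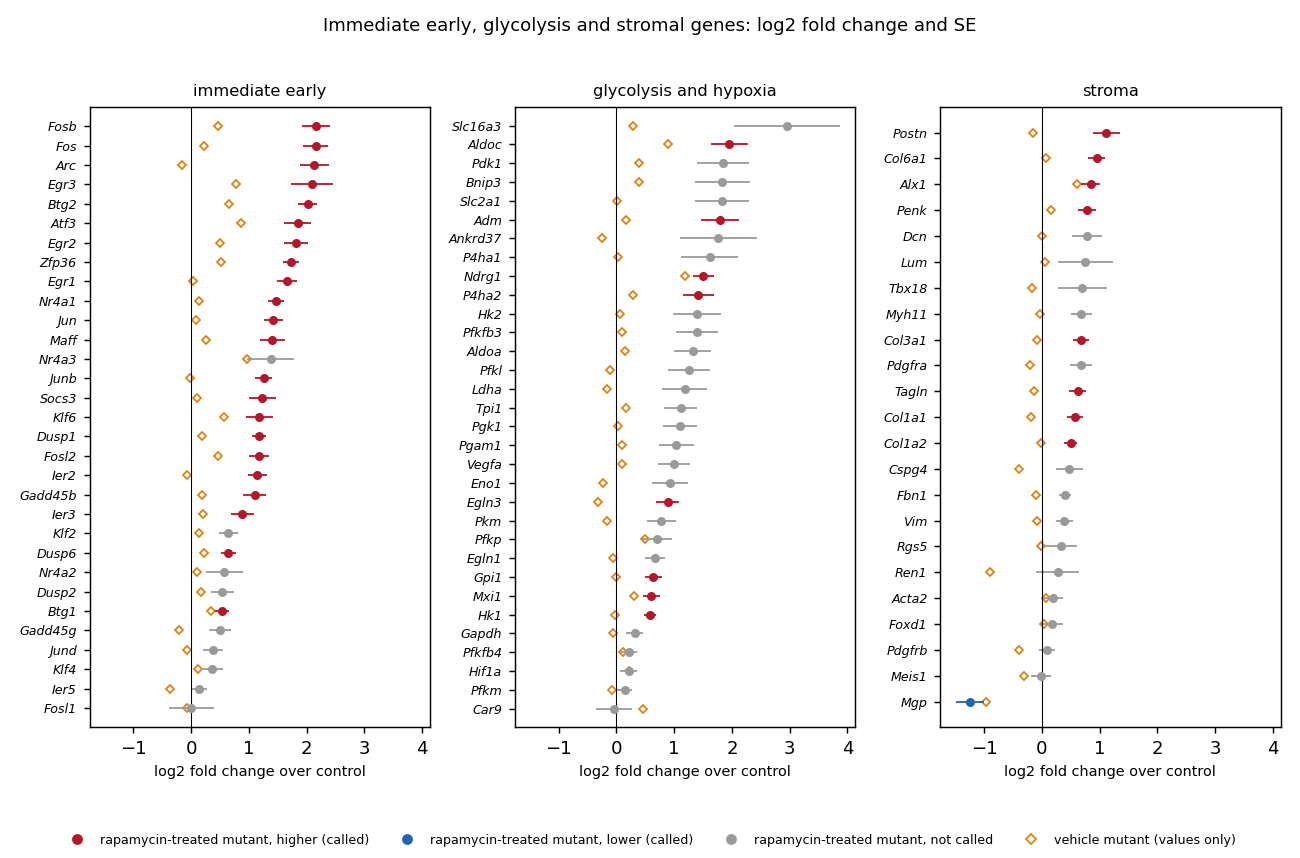
Log2 fold change over control with its SE (horizontal, log2 units) for each tested gene of the immediate early (31), glycolysis and hypoxia (32) and stroma (23) lists. Filled circles are rapamycin-treated mutants (red called higher, blue called lower, grey not called) and open orange diamonds are vehicle mutants over the same control libraries, whose list medians are 0.19, 0.09 and -0.08.

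Genes typical of stroma, a lineage in which the Cre is not known to act, were called in both directions. Of 23 stromal and mural cell genes, 8 rose and 1 fell, with a median of 0.58. Col6a1, a collagen of the interstitium, had 14799.6, 17032 and 14793 normalized counts in the rapamycin-treated mutants, 9436, 7867 and 7986 in the vehicle mutants and 9464, 6530.3 and 8384 in the controls, and the rapamycin-treated libraries were above all others (0.95 ± 0.15, adjusted p = 0.00673). Col3a1, Col1a1 and Col1a2, fibrillar collagens among the most abundant called genes, rose by 0.68 ± 0.14, 0.58 ± 0.13 and 0.50 ± 0.12. Penk, encoding proenkephalin (0.78 ± 0.15), Alx1 (0.85 ± 0.17), and, named after their values were seen, Postn, encoding periostin (1.11 ± 0.23), and Tagln, of smooth muscle (0.62 ± 0.15), rose too. Mgp, an inhibitor of calcification, fell (-1.25 ± 0.25, adjusted p = 0.0217). Foxd1, the defining factor of stromal progenitors, had 1043, 609.7 and 639 normalized counts in the rapamycin-treated mutants, 636, 729 and 648 in the vehicle mutants and 708, 619.5 and 638 in the controls and did not pass (0.18 ± 0.19, adjusted p = 0.69). The list summed to 267737 to 322591 normalized counts in rapamycin-treated mutants, 175642 to 198053 in vehicle mutants and 183625 to 208269 in controls. The number of stromal cells in each sort is not given, and its part was not tested.

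Col6a1 kept its call in all 9 fits, while Col3a1 and Mgp lost their calls without any 1 library other than vehicle mutant 1, vehicle mutant 2, vehicle mutant 3 or control 1 (adjusted p up to 0.133). Col1a1 lost its call without any 1 library other than vehicle mutant 1 (adjusted p up to 0.173). Col1a2 lost its call without any 1 library other than vehicle mutant 1 or control 1 (adjusted p up to 0.18). Penk lost its call without rapamycin 1, rapamycin 2 or control 2 (adjusted p up to 0.108). Alx1 lost its call without rapamycin 1, rapamycin 2, rapamycin 3 or control 2 (adjusted p up to 0.109). The stromal rises numbered 5 with the 6 compared libraries alone, 1 without rapamycin 1, rapamycin 2 or control 2, 2 without rapamycin 3, 4 without control 3, 5 without vehicle mutant 2 or vehicle mutant 3 and 4 without both control 1 and rapamycin 2, and the fall 0 without rapamycin 1, rapamycin 2, rapamycin 3, control 2 or control 3. In a list of 32 collagens and other matrix genes, 5 rose and 0 fell (12 higher and 2 lower at an unadjusted p under 0.05, 0 lower by limma-voom; median 0.24). They were Matn1, Fn1, Tnc, encoding tenascin (1.10 ± 0.14, adjusted p = 0.00247), Loxl2, a collagen crosslinking oxidase (0.76 ± 0.13), and Col5a1 (0.71 ± 0.13). Matn1 and Tnc kept their calls in all 9 fits. Loxl2 lost its call without rapamycin 1, rapamycin 2 or control 2 (adjusted p up to 0.0653). Col5a1 lost its call without rapamycin 1, rapamycin 3 or control 2 (adjusted p up to 0.0851), and the matrix rises numbered 2 without rapamycin 1 or control 2, 3 without rapamycin 2 and 8 without control 1. The matrix falls numbered 2 without vehicle mutant 1 or control 1 and 1 without both control 1 and rapamycin 2.

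Of 17 endothelial genes, 2 rose and 1 fell (median 0.38). The rises were the vascular endothelial growth factor receptors Kdr, with 4953, 4920.3 and 5805 normalized counts in the rapamycin-treated mutants, 3366, 2359 and 3078 in the vehicle mutants and 3415, 2539 and 2033 in the controls (1.00 ± 0.19, adjusted p = 0.0183), and Flt1 (1.16 ± 0.24, adjusted p = 0.0263). Claudin Cldn5 of endothelial junctions fell (-0.80 ± 0.19, adjusted p = 0.044), and Pecam1 did not pass (0.58 ± 0.14, adjusted p = 0.0554). Kdr lost its call without rapamycin 1, rapamycin 2, rapamycin 3 or control 2 (adjusted p up to 0.0925). Flt1 lost its call without rapamycin 2, rapamycin 3, control 2 or control 3 (adjusted p up to 0.129). Cldn5 lost its call without any 1 library other than rapamycin 3, vehicle mutant 1, vehicle mutant 3 or control 1 (adjusted p up to 0.168), and the rises numbered 0 without rapamycin 2, rapamycin 3 or control 2, 1 without rapamycin 1 or control 3, 5 without control 1 and 5 without both control 1 and rapamycin 2. The list summed to 35924 to 47591 normalized counts in rapamycin-treated mutants and 28753 to 32815 in controls. Of 18 leukocyte genes, 1 rose and 0 fell (1 higher and 0 lower at an unadjusted p under 0.05, 0 lower by limma-voom), the lipopolysaccharide receptor Cd14 (0.90 ± 0.20, adjusted p = 0.0367), and Cd14 lost its call without any 1 library other than rapamycin 1, vehicle mutant 1, vehicle mutant 3 or control 1 (adjusted p up to 0.169). The leukocyte list summed to 24560.3 to 33252 normalized counts in rapamycin-treated mutants and 22879.8 to 30140.3 in controls. Among 8 tested erythroid genes 0 passed under limma and 0 under limma-voom (0 higher and 1 lower at an unadjusted p under 0.05), Epor had the smallest p (-0.65 ± 0.25, adjusted p = 0.195), and without control 1, whose Hbb-bs, Hbb-bt, Hba-a1 and Hba-a2 levels were the highest of all libraries, 2 rose.

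Few genes of the mTORC1 pathway itself were called, in a share close to the background. Of 45 components and upstream regulators, 2 rose and 0 fell (7 higher and 1 lower at an unadjusted p under 0.05, 2 higher and 0 lower by limma-voom; median 0.05). Flcn, encoding folliculin, which activates the Rag GTPases on lysosomes, had 1566, 1793 and 1573 normalized counts in the rapamycin-treated mutants, 1787, 1711 and 1614 in the vehicle mutants and 1098, 920.3 and 1021 in the controls (0.70 ± 0.12, adjusted p = 0.00989). Castor2, related to the arginine sensor, rose by 0.52 ± 0.11. For both, the 2 mutant groups overlapped and lay above every control. Flcn lost its call without rapamycin 2 or control 2 (adjusted p up to 0.0613). Castor2 lost its call without any 1 library other than vehicle mutant 1, vehicle mutant 3 or control 1 (adjusted p up to 0.124). In insulin and IGF signalling, which mTORC1 restrains by feedback, 6 of 30 members rose and 0 fell (14 higher and 0 lower at an unadjusted p under 0.05, 0 lower by limma-voom; median 0.32). Irs2, the adaptor that links the insulin receptor to its kinase cascade, had 3959.7, 4595 and 3418 normalized counts in the rapamycin-treated mutants, 2317, 2245 and 2356 in the vehicle mutants and 2045, 2290.5 and 1747 in the controls. Rapamycin-treated mutants lay above all others (0.98 ± 0.14, adjusted p = 0.00404) and exceeded vehicle mutants by 0.78, adjusted p = 0.0456. Igfbp1 (1.92 ± 0.34) and Igfbp5 (0.73 ± 0.15), which bind IGFs, the forkhead factor Foxo3 (0.57 ± 0.10), the IGF2 scavenger Igf2r (0.74 ± 0.17) and Ddit4, an inhibitor of mTORC1 (1.80 ± 0.38), rose. Irs2 kept its call in all 9 fits. Igfbp1 lost its call without control 2 (adjusted p up to 0.0613). Igfbp5 lost its call without rapamycin 1, rapamycin 2, vehicle mutant 2 or control 3 (adjusted p up to 0.11). Foxo3 lost its call without rapamycin 1, rapamycin 2 or rapamycin 3 (adjusted p up to 0.0697). Igf2r lost its call without any 1 library other than vehicle mutant 1 or control 1 (adjusted p up to 0.151). Ddit4 lost its call without any 1 library other than vehicle mutant 1, vehicle mutant 2, vehicle mutant 3 or control 1 (adjusted p up to 0.144), and the count was 2 without rapamycin 1 or rapamycin 2 and 3 without rapamycin 3, control 2 or control 3.

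Of 52 lysosomal genes and targets of TFEB, the transcription factor that mTORC1 keeps in the cytoplasm, 5 rose and 0 fell (17 higher and 0 lower at an unadjusted p under 0.05, 0 lower by limma-voom; median 0.19). The rises were the sulfatase Arsa (0.66 ± 0.13, adjusted p = 0.0239), the cystine exporter Ctns (0.56 ± 0.11), the peptidase Tpp1 (0.52 ± 0.11), the cholesterol carrier Npc1 (0.47 ± 0.10) and the sialidase Neu1 (0.68 ± 0.15, named after its values were seen). The count of 5 was 2 with the 6 compared libraries alone, 0 without rapamycin 1, rapamycin 2, rapamycin 3 or control 2, 1 without vehicle mutant 2, 3 without control 3 and 0 without both control 1 and rapamycin 2. Of 39 genes of the ATF4 amino acid response, 5 rose and 0 fell (13 higher and 2 lower at an unadjusted p under 0.05, 0 lower by limma-voom; median 0.16). Atf3, a stress-induced factor that is also an immediate early gene, had 1447, 2058 and 1448 normalized counts in the rapamycin-treated mutants, 988, 673 and 837 in the vehicle mutants and 642, 387 and 373 in the controls (1.84 ± 0.23, adjusted p = 0.00233). The glycine transporter Slc6a9 (0.93 ± 0.16), the cationic amino acid transporter Slc7a3 (1.39 ± 0.26), asparagine synthetase Asns (0.76 ± 0.17, named after its values were seen) and Ddit4 rose. Atf3 kept its call in all 9 fits. Slc6a9 lost its call without rapamycin 2, rapamycin 3 or control 2 (adjusted p up to 0.0764). Slc7a3 lost its call without rapamycin 1, rapamycin 2, rapamycin 3 or control 2 (adjusted p up to 0.0845), and the count of 5 was 1 without rapamycin 2, rapamycin 3 or control 2, 2 without rapamycin 1, 8 without vehicle mutant 1 and 2 without both control 1 and rapamycin 2.

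The cell cycle genes that were called fell, and most of those tested were not called. Of 34 DNA replication genes, 5 fell and 0 rose (25 lower and 0 higher at an unadjusted p under 0.05, 0 higher by limma-voom), and all 34 had a negative log2 fold change (median -0.51). Rrm2, the regulated subunit of ribonucleotide reductase, had 2938, 2208 and 3029 normalized counts in the rapamycin-treated mutants, 4007, 3582 and 3640.4 in the vehicle mutants and 4141, 4896 and 5366 in the controls, and the primase subunit Prim1 had 987, 879.7 and 978 normalized counts in the rapamycin-treated mutants, 1394, 1154 and 1126 in the vehicle mutants and 1422, 1599 and 1565 in the controls. Rapamycin-treated mutants lay below all others for each, with log2 fold changes over controls of -0.82 ± 0.15, adjusted p = 0.013 and -0.69 ± 0.12, adjusted p = 0.0134. The mutant groups differed by -0.47 (adjusted p = 0.231) for Rrm2 and -0.36 (adjusted p = 0.269) for Prim1, and neither passed. Of 32 genes of mitosis, 3 fell and 0 rose (26 lower and 0 higher at an unadjusted p under 0.05, 0 higher by limma-voom), again all with a negative value (median -0.45), led by the kinesin Kif23 (-0.54 ± 0.10, adjusted p = 0.0174), the centromere histone Cenpa (-0.58 ± 0.11, adjusted p = 0.0206) and the kinesin Kif4 (-0.55 ± 0.13). The remaining replication genes that fell were Cdc45 of the replicative helicase (-0.65 ± 0.15) and the clamp loader subunits Rfc4 (-0.67 ± 0.15) and Rfc3 (-0.84 ± 0.20, named after its values were seen). For mitosis the vehicle mutants had the same median over these controls, -0.45. The replication count of 5 was 2 with the 6 compared libraries alone, 0 without rapamycin 2 or control 2, 1 without rapamycin 3, 2 without rapamycin 1, vehicle mutant 2 or control 3, 3 without vehicle mutant 3, 16 without control 1 and 3 without both control 1 and rapamycin 2, and the mitosis count of 3 was 0 without rapamycin 2, rapamycin 3 or control 2, 1 without rapamycin 1 or control 3, 9 without vehicle mutant 1 and 0 without both control 1 and rapamycin 2. Rrm2 lost its call without rapamycin 2 or control 2 (adjusted p up to 0.0719). Prim1 and Kif23 lost their calls without rapamycin 2, rapamycin 3 or control 2 (adjusted p up to 0.0942). Cenpa lost its call without any 1 library other than vehicle mutant 1, vehicle mutant 2, vehicle mutant 3 or control 1 (adjusted p up to 0.0914). Kif4 and Cdc45 lost their calls without any 1 library other than vehicle mutant 1 or control 1 (adjusted p up to 0.174). Rfc4 lost its call without any 1 library other than vehicle mutant 1, vehicle mutant 3 or control 1 (adjusted p up to 0.143).

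Of 28 genes of the pentose phosphate pathway and nucleotide synthesis, 1 fell and 0 rose (7 lower and 0 higher at an unadjusted p under 0.05, 0 higher by limma-voom; median -0.14), thymidylate synthase Tyms (-0.63 ± 0.15, adjusted p = 0.0439). Among 40 genes of ribosome biogenesis and the Myc family, Mycn, which drives growth of progenitors, fell with 1307, 1294 and 1592 normalized counts in the rapamycin-treated mutants, 1623, 1626 and 1863 in the vehicle mutants and 2119.6, 2889 and 3211 in the controls (-0.96 ± 0.16, adjusted p = 0.0102), and Myc rose with 2123, 2035 and 2145 normalized counts in the rapamycin-treated mutants, 1724, 1257 and 1364 in the vehicle mutants and 1549.5, 1185 and 1365 in the controls (0.63 ± 0.14, adjusted p = 0.0399). Neither gene overlapped between rapamycin-treated mutants and controls. These were the only called members, and 35 of the 40 had a negative log2 fold change (8 lower and 1 higher at an unadjusted p under 0.05, median -0.20). Tyms lost its call without any 1 library other than rapamycin 1, vehicle mutant 1 or control 1 (adjusted p up to 0.14). Mycn lost its call without rapamycin 1, rapamycin 2 or control 2 (adjusted p up to 0.0653). Myc lost its call without any 1 library other than vehicle mutant 1 or control 1 (adjusted p up to 0.182). Without control 1, 3 nucleotide genes and 2 biogenesis genes fell, and without vehicle mutant 1, 2 biogenesis genes fell.

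In other lists 1 or 2 members were called, which is not a result about those lists. Gpx3, the glutathione peroxidase that the kidney secretes into plasma, was the 1 of 17 glutathione and NRF2 target genes that rose, and 0 fell (1 higher and 4 lower at an unadjusted p under 0.05, 0 lower by limma-voom; median -0.13). It had 3995, 4028 and 4212 normalized counts in the rapamycin-treated mutants, 6705, 9501 and 10766 in the vehicle mutants and 1366, 1383 and 2020.1 in the controls. Rapamycin-treated mutants lay between the other groups without overlap, with 1.38 ± 0.19, adjusted p = 0.00362 over controls and -1.11, adjusted p = 0.041 over vehicle mutants, and the call held in all 9 fits. In steroid metabolism, 1 of 17 tested members rose and 1 fell (median -0.06). Srd5a2, a steroid 5-alpha reductase, had 28 raw counts in rapamycin-treated mutants and 1 in controls, a ratio of 28.4 (95% counting interval 4.69 to 1160.2), and Srd5a1 fell (-0.82 ± 0.18, adjusted p = 0.0325). Of 19 imprinted growth genes, 2 rose and 0 fell (12 higher and 0 lower at an unadjusted p under 0.05, 0 lower by limma-voom; median 0.54), Igf2r and the placental growth regulator Phlda2 (1.50 ± 0.35, adjusted p = 0.0424). Srd5a2 lost its call without rapamycin 2 or control 2 (adjusted p up to 0.0613). Srd5a1 lost its call without any 1 library other than vehicle mutant 1, vehicle mutant 3 or control 1 (adjusted p up to 0.163). Phlda2 lost its call without any 1 library other than vehicle mutant 1 (adjusted p up to 0.153). Without control 1, with or without rapamycin 2, 1 NRF2 target fell. The imprinted count was 0 without rapamycin 1, rapamycin 2, rapamycin 3, vehicle mutant 2, control 2 or control 3, 1 without vehicle mutant 3, 4 without vehicle mutant 1 and 6 without control 1.

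The lists that follow had no called member under limma and none under limma-voom, and counts at an unadjusted p under 0.05 are given for each. The first held 8 higher and 1 lower of 34 cholesterol and fatty acid synthesis genes, where Acss2 had the smallest p (0.52 ± 0.13, adjusted p = 0.0622). The counts were 0 higher and 5 lower of 74 nuclear respiratory chain genes (-0.43 ± 0.16, adjusted p = 0.192 for Ndufa5), and 0 of 12 tested mitochondrially encoded genes. They were 0 of 79 cytosolic ribosomal protein genes, 12 higher and 0 lower of 33 interferon genes (0.62 ± 0.15, adjusted p = 0.0543 for Stat2), and 4 higher and 2 lower of 36 cystic disease and cilia genes (0.35 ± 0.12, adjusted p = 0.153 for Pkd1). Without control 1, limma called 9 interferon genes and 1 synthesis gene higher and 1 cystic disease gene lower, without vehicle mutant 1 it called 1 synthesis gene higher, and without both control 1 and rapamycin 2 it called 3 interferon genes higher. Medians over controls were 0.18, -0.22, -0.11, -0.10, 0.40 and 0.11 in the order given.

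**Figure D5:**
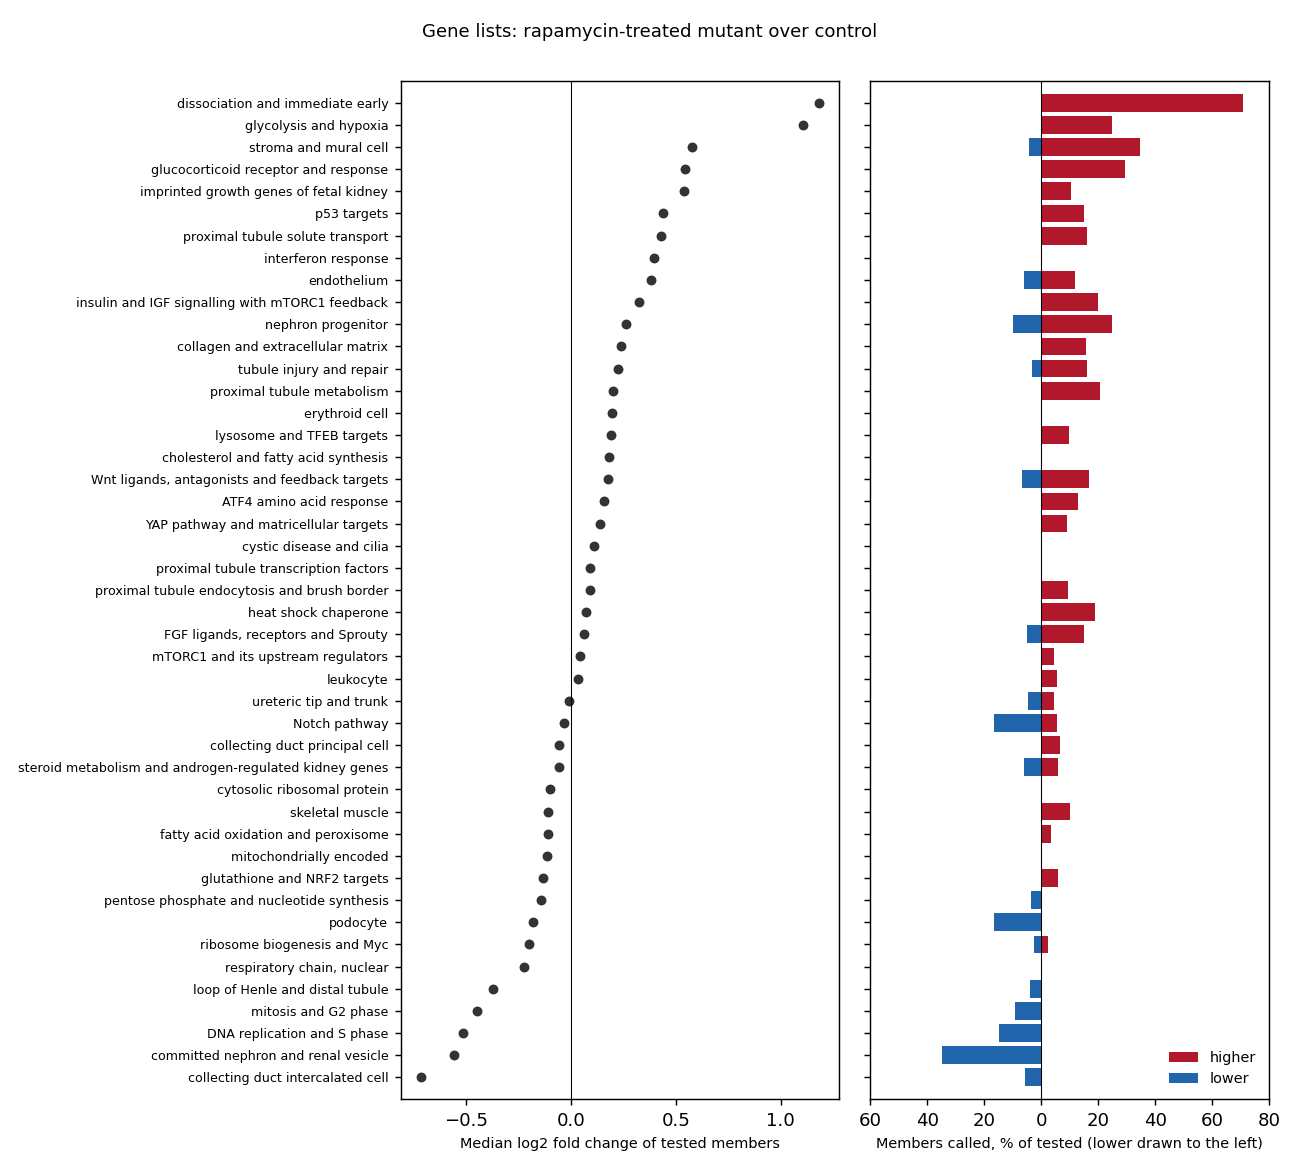
Each row is a gene list, ordered by the median log2 fold change of its tested members, rapamycin-treated mutant over control (left), and the share of tested members called higher (red, to the right of 0) or lower (blue, to the left) in percent (right). The immediate early list stands highest (median 1.18) and the intercalated cell list lowest (median -0.71), and the committed nephron list holds the largest share called lower among these lists (8 of 23).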

How the data were processed

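The authors deposited raw read counts per gene and the same counts divided by a size factor per library (normalized counts). Per the submitters' processing notes, cutadapt 1.18, TopHat2 2.1.1, HTSeq 0.6.0, DESeq2 1.22.1 and build GRCm38 were used, while their roles, the annotation and the strand setting are not stated in the sources, although the kit was stranded per the labels' protocols. Some deposited cells hold question marks in place of values, and the genes concerned in the raw counts, 6252 of 54838, were left out and could not be called. Each raw count was divided by the size factor of its library, 1 was added, and the log2 values of genes with a mean of at least 5 over the 9 libraries were fitted in 1 model of 3 group means with limma 3.58.1 (R 4.3.3, trend and robust empirical Bayes, statmod 1.5.0), which was tested on simulated data. Because of the question marks the columns did not pass as plain counts, so a test on log2 values took the place of a count model, and limma-voom was an alternative. P-values were adjusted by the Benjamini-Hochberg method over all tested genes, with a threshold of 0.05. Intervals of count ratios cover counting error only. Members and gene lists were chosen with earlier results of these data known. Named were the 8 largest rises and falls among called genes whose groups did not overlap (mean at least 10), the 5 most abundant called genes in each direction, up to 4 called members of each list by smallest p (the smallest p where none was called) and 6 check genes. Predicted, ribosomal RNA, X-inactivation and Y-linked genes were left out of the first 2 rules, and some genes these rules chose are not reported here. Samples were grouped by their labels. Promoters came from RefSeq (GRCm38.p6), first listed start per gene, and 12939 of 19649 tested symbols matched. The motifs searched, on both strands, were TGACG and the CArG box by its consensus.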

Additional observations from a re-analysis of the deposited data

How the results depend on the processing

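With the replicate number as a replicate block, 1090 genes were called (713 higher, 377 lower), but the numbers share nothing but a digit in the labels. The deviations of same-numbered rapamycin-treated mutant and control libraries correlated at -0.34, -0.01 and 0.22, and not every library correlated best with its own number. Without a trend and robust prior, 398 genes were called (283 higher, 115 lower). With the 6 compared libraries alone, 107 genes were lower, and all 3 totals otherwise stayed within 1.5 times. Counts of list members moved more. With the 6 libraries alone, the rises numbered 21 rather than 8 for glycolysis and hypoxia, 5 rather than 8 for stroma, 3 rather than 5 for Wnt and 2 rather than 5 for the lysosome, and the replication falls 2 rather than 5. Without a trend and robust prior they numbered 4, 1, 2, 2 and 2 in that order, and the falls of the committed nephron 4 rather than 8 and those of mitosis 0 rather than 3. With the replicate block, the mitosis falls numbered 11 and the imprinted rises 9 rather than 2. Upper quartile scaling gave 3 Wnt rises and 5 mitosis falls. Leaving out 1 library gave 175 to 1131 calls, 155 to 719 higher and 20 to 412 lower, and for these settings the cause was not tested. Of 121 named genes called, 47 kept the call without control 2, 52 without rapamycin 2, 62 without rapamycin 1, 66 without rapamycin 3, 80 without control 3, 87 without vehicle mutant 2 and at least 109 without any other single library. Without both control 1 and rapamycin 2, 78 kept it, with plain empirical Bayes 74 of 121, and with the 6 libraries alone 94 of 120. Under limma-voom 119 kept it, and other scalings, pseudocounts and count minimums took the call from at most 1. No called named gene changed direction under any setting run. Under upper quartile scaling 66.3% of called genes were higher, against 71.0% with the authors' size factors. With 3 libraries a side, genes that missed the threshold are not shown to be equal.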
